A study of Mus musculus with 12 samples.

Results

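Interferon-stimulated genes are the genes that cells switch on when an interferon, a cytokine released on infection or tissue alarm, binds its receptor. A list of 41 such genes was given by symbol and looked up in the feature lists of the deposited count matrices, where 40 of the 41 were found among 32285 genes. Mx1 is not analysed here. The genes were measured in 12 libraries of single cells from lymph nodes of mice, sorted into cell classes by marker genes, and compared over endothelial, lymphatic, stromal and immune classes.

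Each library was 1 combination of genotype label, treatment and cell fraction. All mice were C57BL/6, 7 to 10 weeks old, carried floxed Atg12 (ATG12 fl/fl, an autophagy gene) and received tamoxifen. Libraries labelled Cre-positive came from mice with CDH5 CreER, a tamoxifen-dependent Cre recombinase under the Cdh5 promoter, which is active in endothelial cells of blood and lymph vessels, and those labelled Cre-negative from mice without it. Lymph nodes were collected 3 or 7 days after 4% oxazolone, which sensitises skin on contact, was put on the abdomen, or after its solvent of acetone and olive oil (vehicle). Cells not held by CD45 beads form the CD31 fraction, which is rich in endothelium, and cells held by them form the CD45 fraction. The groups used were therefore vehicle, day 3 and day 7, each labelled Cre-negative and Cre-positive, in both fractions, with 1 library each and no replicate of any group. The labels do not say how many mice went into a library or whether both fractions of a group came from the same mice, so p-values measure only the spread between these libraries. In the genotype and day fits, that spread is how much the label difference changed between treatments, because no group has a replicate. A label difference that changes with treatment therefore counts as error in those fits. In each run of 6 values the pairs are vehicle, then day 3, then day 7, and within a pair Cre-negative stands first and Cre-positive second.

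Type I and type III interferons signal through the Jak kinases to a complex that includes Stat2 and Irf9 and binds a DNA element called the interferon-stimulated response element. Interferon gamma acts through another DNA element, the gamma-activated sequence. In lymph nodes, endothelial cells line the high endothelial venules (HEV) through which lymphocytes enter and the lymphatic sinuses that bring in antigen and cells from the skin, and many of these genes are already expressed there without infection.

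Promoters were read because several of these genes moved in the same direction within pairs of libraries, as described below. RefSeq promoter windows on GRCm38.p6, which run from 250 bases before to 50 bases after a transcript start, were found for 32 of the 40 genes. No entry was matched for Dhx58, Zbp1, Usp18, Gbp4, Ifi27l2a, Parp9, Parp14 and Rtp4. The core of the interferon-stimulated response element was searched on both strands as GAAA, any 2 bases and GAAA again (as TTTC, any 2 bases and TTTC on the other strand), and the gamma-activated sequence as TTCNNNGAA, which reads the same on both strands. The former occurred in 17 of the 32 genes (53.1%), against 3.99% of all 27025 genes with a window and 3.44% of all 32851 windows. The latter occurred in 9 (28.1%), against 9.55% of genes and 8.30% of windows. Both were present in 5 genes and neither in 11. A match is a description of the letters in this window and not a tested binding site.

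The 250 bases before the start were read for 6 genes, each with another role. They were taken in order of the genotype difference in blood endothelial-like cells described below. The 4 that held a match are shown here, written 5′ to 3′ on the gene's strand, with matches in capitals. Ifit1 (chr19:34640639-34640888, plus strand) has 2 copies of the response element core. Isg15 (chr4:156200819-156201068, minus strand) has 3 copies, of which neighbours share 4 bases. Rsad2 (chr12:26456453-26456702, minus strand) has 1 copy. Gbp7 (chr3:142530086-142530335, plus strand) has 1 copy beside 2 gamma-activated sequences.
Ifit1: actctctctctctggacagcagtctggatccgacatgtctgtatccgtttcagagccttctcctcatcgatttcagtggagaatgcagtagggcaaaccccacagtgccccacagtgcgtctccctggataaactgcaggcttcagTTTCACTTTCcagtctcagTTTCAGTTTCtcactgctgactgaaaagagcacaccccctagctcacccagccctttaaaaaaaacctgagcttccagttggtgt
Isg15: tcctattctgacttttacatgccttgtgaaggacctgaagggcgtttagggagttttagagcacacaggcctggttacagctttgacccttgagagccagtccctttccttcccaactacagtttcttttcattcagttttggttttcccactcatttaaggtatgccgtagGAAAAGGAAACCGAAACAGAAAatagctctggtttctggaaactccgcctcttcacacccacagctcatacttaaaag
Rsad2: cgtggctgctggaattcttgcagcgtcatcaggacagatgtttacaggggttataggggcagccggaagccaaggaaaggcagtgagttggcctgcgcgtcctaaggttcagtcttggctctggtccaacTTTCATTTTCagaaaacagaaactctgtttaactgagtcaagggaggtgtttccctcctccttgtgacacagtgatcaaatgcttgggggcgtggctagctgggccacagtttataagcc
Gbp7: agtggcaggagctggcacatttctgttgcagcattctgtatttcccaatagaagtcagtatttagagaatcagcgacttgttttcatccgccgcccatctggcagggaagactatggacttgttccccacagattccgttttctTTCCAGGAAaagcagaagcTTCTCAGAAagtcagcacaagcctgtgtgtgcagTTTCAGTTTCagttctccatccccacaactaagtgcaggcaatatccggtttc

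The same stretch was read for Irf7 (chr7:141266425-141266674, minus strand) and Ifih1 (chr2:62646256-62646505, minus strand), and neither held a match. The single match of Ifih1 lay 33 bases after the start.

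Over the 12 libraries, totals were 36724887 to 76186801 UMIs (a UMI tags 1 captured molecule), and 5698 to 10553 cells per library were kept. Any pair of libraries shared 7 to 31 cell barcodes over 66 pairs, at most 0.380% of the smaller one. Classes carry the suffix -like because they rest on markers: in HEV-like cells the 8 HEV markers summed to 13155 to 75709 CPM (scaled counts, defined below), in lymphatic endothelial-like cells the 8 lymphatic markers summed to 3017 to 3899 CPM, and in fibroblastic stromal-like cells the 9 fibroblastic markers summed to 24126 to 37368 CPM. Of the 40 genes, none was used to cluster the cells. Several clusters were left unnamed after their leading genes were read. Of the kept CD31 cells, a cluster led by Ccl20, Coch and Madcam1 held 1.17% to 6.37%, a cycling cluster with endothelial markers 0.279% to 4.38%, and a cluster with few UMIs 0.226% to 21.2%. The cluster with few UMIs was largest in the day 3 library labelled Cre-positive. Barcodes removed as doublets there had a lower median than those kept (2157 against 3434 UMIs), as in the vehicle CD31 library labelled Cre-negative (3702 against 4329). In lymphatic endothelial-like cells the 7 macrophage markers summed to 91.2 to 526 CPM over the libraries. In the CD45 libraries a stromal cluster led by Igfbp3 and Cxcl12 held 2.36% to 14.3%. Cells with Y-linked UMIs made up 42.2% and 64.6%, 22.6% and 36.6%, and 30.5% and 19% of blood endothelial-like cells.

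A level is given as CPM, the gene's UMIs summed over the cells of a class in 1 library and scaled to a total that is the same for every class and library. The blood endothelial-like class holds 2832 to 4604 cells per library and includes the arterial-like, capillary-like and HEV-like cells. The 40 genes were spread over the classes in no single order. By the mean over 6 libraries, and among 12 classes, arterial-like endothelial cells were the highest for 12 genes, plasmacytoid dendritic cell-like cells (specialised interferon producers) for 7, and the other blood endothelial-like cells for 5. In arterial-like cells the 8 arterial markers summed to 2978 to 3750 CPM and the 6 capillary markers to 6271 to 7718. The lead of this class is thus not that of cells free of capillary markers. Capillary-like cells led for 4 genes, T cell-like cells for 3, and HEV-like, lymphatic endothelial-like, macrophage-like and B cell-like cells for 2 each. Fibroblastic stromal-like cells led for 1. Classes outside the 12 were not ranked. Among these, plasma cell-like cells of the CD45 libraries averaged 219 CPM of Isg20 (27.0 to 317), a gene led by T cell-like cells within the 12. The range of the leading class stood clear of that of the second class by mean for 5 of the 40 genes only. It stood clear of each other class of the 12 for 3, Bst2, Ifitm1 and Trim30a. Neither these counts nor the leads by class were made over all genes, so they describe the 40 genes only.

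The 5 genes clear of the second class were Isg15, Ifitm1, Ifi27l2a, Bst2 and Trim30a. Isg15, a ubiquitin-like protein that is coupled to other proteins, averaged 373 CPM in arterial-like cells (332 to 408), above 254 in the other blood endothelial-like cells (195 to 299), but the highest lymphatic endothelial-like library, at 361, lay inside the arterial range. Bst2 (tetherin), which holds budding virus particles at the cell surface, averaged 4864 CPM in plasmacytoid dendritic cell-like cells (4266 to 5774), above 1043 in arterial-like cells (991 to 1089). The antiviral E3 ligase Trim30a was also clear of the rest in plasmacytoid dendritic cell-like cells, at 319 CPM (246 to 380).

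Ifitm1, which with its relatives Ifitm2 and Ifitm3 blocks virus entry at membranes, averaged 908 CPM in fibroblastic stromal-like cells (461 to 1816) and 83.0 in macrophage-like cells (0 to 211). It was close to absent in arterial-like cells, at 0.946 CPM. Ifi27l2a, an interferon-induced membrane protein, averaged 2299 CPM in lymphatic endothelial-like cells (1664 to 3516) and 1307 in T cell-like cells (845 to 1656), while macrophage-like cells reached 2350 in their highest library. For the other 35 genes the ranges of the first and second class overlapped, so their order there is not resolved by 6 libraries.

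**Figure D1:**
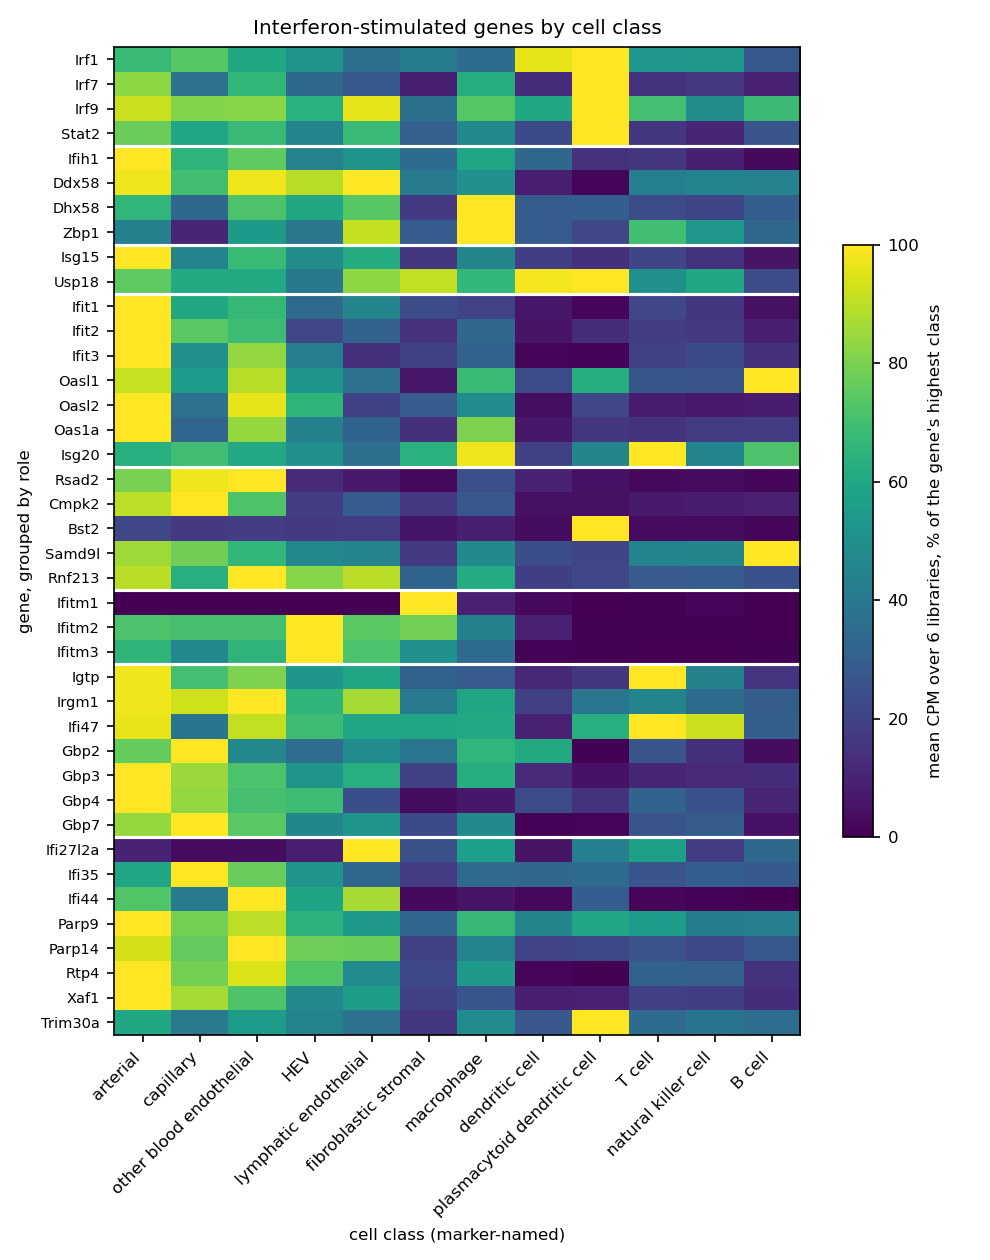
Rows are the 40 genes grouped by role, columns are 12 cell classes, and colour is the mean CPM over 6 libraries as a percent of the gene's highest class. Most rows are bright on the left, in the endothelial classes, while Bst2 and the regulators Irf7, Irf9 and Stat2 peak in plasmacytoid dendritic cells, Ifitm1 in fibroblastic stromal cells and Ifi27l2a in lymphatic endothelium.

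The lymphatic and blood endothelial-like classes were compared within the same 6 CD31 libraries, with the library as a block, to ask which of the genes differ between them. The lymphatic class held 350 to 832 cells per library. The unnamed cluster led by Ccl20, Coch and Madcam1, with 123 to 480 cells per library, was in neither class. In lymphatic endothelial-like cells 28 of the 40 genes were lower and 3 were higher than in blood endothelial-like cells. Of the lower genes, Irgm1 lost its call in 6 of the 10 alternatives run, Gbp2 in 4 and Bst2 in 1. The classes were clustered from the same cells, though without these genes, and over all 13755 genes 55.8% were called, 28.8% lower and 27% higher. The median difference of the 40 genes was a log2 of -0.53, against -0.02 over all genes. Calls are by edgeR's quasi-likelihood test at a Benjamini-Hochberg adjusted p of 0.05 over all genes tested, here and below.

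The most reduced was Rsad2 (viperin; ENSMUSG00000020641, GRCm38 chromosome 12, 26442746 to 26456452), an enzyme that makes a chain-terminating nucleotide against viruses. In blood endothelial-like cells it stood at 270 and 275, 152 and 196, and 200 and 267 CPM. In lymphatic endothelial-like cells it stood at 26.9 and 21.2, 9.41 and 25.6, and 9.69 and 41.1. No lymphatic value reached any blood endothelial value, and the fitted difference was a log2 of -3.55 (SE 0.19, adjusted p 1.85e-08), or 11.7-fold lower. Among the RNA effectors, Ifit3, which binds foreign RNA with its relatives, was lower by -2.49 (SE 0.11). The RNA-binding protein Oasl2 was lower by -2.18 (SE 0.07), and Gbp4, a GTPase that acts on intracellular pathogens, by -1.82 (SE 0.10). All 7 RNA effectors were called lower in the lymphatic class, and the regulators Irf1 and Irf7 were too, while Irf9, Stat2, Ddx58, Dhx58, Isg15, Rnf213, Ifitm1, Ifitm3 and Ifi44 were not called.

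Ifi27l2a (ENSMUSG00000079017, chromosome 12, 103442167 to 103443680) was the reverse. It stood at 2309 and 1721, 2325 and 3516, and 1664 and 2261 CPM in lymphatic endothelial-like cells, whereas the blood endothelial-like class gave 110 and 74.5, 133 and 168, and 54.2 and 157. Every lymphatic value was above every blood endothelial one, and the difference was a log2 of 4.22 (SE 0.13, adjusted p 1.57e-10), or 18.6-fold. The other 2 genes called higher were Zbp1, a sensor of left-handed nucleic acids, by 0.88 (SE 0.10), and Usp18, the protease that removes Isg15 and damps the receptor, by 0.39 (SE 0.09). Genes named at this point were those at the extremes of the 40, chosen after their values were seen.

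HEV-like cells were compared in the same way with the remaining blood endothelial-like cells, to ask where the venule that lymphocytes cross differs. Of the 40 genes 20 were lower and 5 higher, where 60.1% of all 12974 genes were called, 28.8% lower and 31.2% higher. Rsad2 was lower in HEV-like cells by a log2 of -2.82 (SE 0.23, adjusted p 5.64e-07). Its 6 levels there were 29.2 and 17.4, 32.5 and 45.5, and 19.4 and 76.9 CPM. Its neighbour on chromosome 12, the mitochondrial nucleotide kinase Cmpk2, was lower by -1.94 (SE 0.14), and Ifit2, an Ifit family member that restrains translation, by -1.52 (SE 0.17). All 3 genes kept their calls under the 10 alternatives run.

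Higher in HEV-like cells were Ifitm3 by 0.94 (SE 0.07), Ifitm2 by 0.72 (SE 0.07), Ifitm1 by 1.34 (SE 0.34), Ifi27l2a by 1.15 (SE 0.22) and Ddx58 (RIG-I, a sensor of viral RNA) by 0.23 (SE 0.06). Ifitm1 kept its call in 9 alternatives, where Ifitm3 had values in 10. It was close to absent in arterial-like cells, as given above, and its HEV-like levels are not given here. Ifitm3 stood at 3825 and 3261, 5421 and 5705, and 3424 and 4201 CPM among HEV-like cells and at 2849 and 2551, 3522 and 3783, and 2873 and 2952 in the whole blood endothelial-like class. HEV-like cells were above the whole class in each library. The levels of Ifi27l2a in the HEV-like class were 178 and 58.0, 256 and 325, and 55.2 and 286 CPM, while free RNA in the same libraries (barcodes with at most 100 UMIs) had 1471 and 789, 1629 and 1721, and 874 and 1539. Both series are lowest in the vehicle library labelled Cre-positive and the day 7 library labelled Cre-negative. With free RNA subtracted, the HEV difference of Ifi27l2a was 0.78 with an adjusted p of 0.244, so its call is lost there. The call of Isg15, lower by -0.25 (SE 0.10, adjusted p 0.0434), is also lost with free RNA subtracted, by DESeq2 and under RLE scaling, and it is lost at 0.144 without the vehicle library labelled Cre-positive; it is lost as well without the vehicle or the day 7 library labelled Cre-negative.

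**Figure D2:**
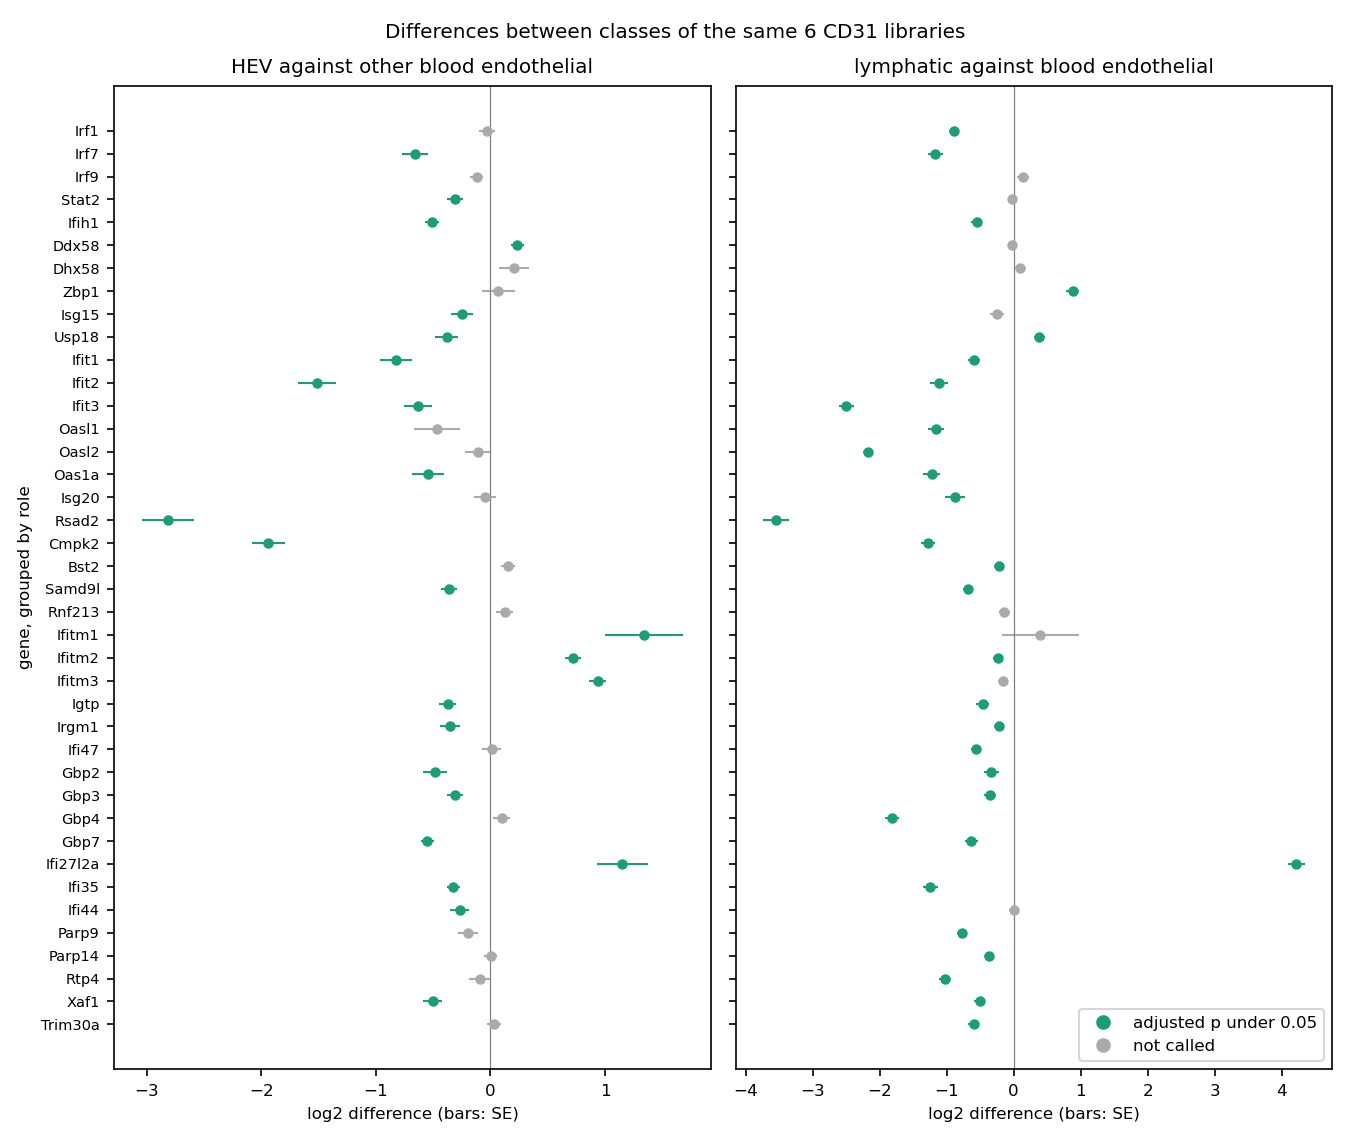
Points are fitted log2 differences for each of the 40 genes, with bars for 1 SE, between HEV-like and other blood endothelial-like cells (left) and between lymphatic and blood endothelial-like cells (right), over 6 CD31 libraries. Green points passed the adjusted p of 0.05; Rsad2 is the lowest point in both panels, and Ifi27l2a stands alone on the right at 4.22.

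The wider pathway was followed through 43 further genes: ligands, receptors, kinases, sensors, brakes and targets. Of 29 tested, 13 differed between lymphatic and blood endothelial-like cells, 4 higher and 9 lower, where 55.8% of all genes were called. The kinase Ikbke was higher in the lymphatic class by 3.72 (SE 0.19) and the transcription factor Irf8 by 2.45 (SE 0.15), while Cxcl9, a chemokine induced by interferon gamma, was lower by -3.54 (SE 0.25). Between HEV-like and other blood endothelial-like cells 22 of 29 were called, 15 higher and 7 lower, where 60.1% of all genes were, among them the brake Socs3 at 2.46 (SE 0.11), the adaptor Sting1 at 1.77 (SE 0.09) and the chemokine Cxcl10 at 1.79 (SE 0.24).

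Genotype was compared next, to ask whether the genes differ between libraries labelled Cre-positive and Cre-negative when treatment is held equal. With 1 library per group this is an average over the 3 pairs, with 2 residual degrees of freedom. edgeR called none of the 40 genes tested (39 in lymphatic endothelial-like and B cell-like cells) in any of 7 classes. DESeq2 also called 0, but gave adjusted values to 16 of the 40 in HEV-like, 6 in fibroblastic stromal-like, 8 in T cell-like, 8 in B cell-like and 5 in myeloid-like cells only. Of all genes with an adjusted value, it called 0.132% in blood endothelial, 0.831% in HEV and 0.0501% in lymphatic endothelial-like cells. In fibroblastic stromal, T cell, B cell and myeloid-like cells it called 2.36%, 4.85%, 1.18% and 13.1%. In blood endothelial-like cells 5 of the 40 had an unadjusted p under 0.05 (2.96% of all genes did), the fitted differences were above 0 for 38 of the 40, and their median was 0.15, with 0.00695% of all genes called and a median of all genes at 0.00. In HEV-like cells 2 were under an unadjusted p of 0.05 (4.96% of all genes), 33 of 40 were above 0 and the median was 0.11, with 0.0259% of all genes called. In lymphatic endothelial-like cells 9 were under that p (3.96% of all genes), 37 of 39 were above 0 and the median was 0.29, with 0.00835% of genes called. The makeup of the blood endothelial-like class differed between labels too. HEV-like cells were 10.5% and 11.3%, 14.5% and 16.7%, and 20.4% and 12.4% of it, and arterial-like cells 15% and 9.97%, 13.2% and 16.9%, and 8.83% and 15%. Capillary-like cells were 28.5% and 26.2%, 46.7% and 22.7%, and 13.8% and 26.7%. The other cells were 46% and 52.5%, 25.6% and 43.7%, and 56.9% and 45.9%, so capillary-like cells had the widest gap between labels at day 3. The cluster with few UMIs, outside this class, was largest in the day 3 library labelled Cre-positive, with 2242 cells (21.2% of those kept). Their median was 1368 UMIs, and that of capillary-like cells in the same library was 1867. The part of this cluster in the gap was not tested. The components of the blood endothelial-like class were set to 1 scale by the median ratio, with no test. Within them, the Cre-positive library was higher at vehicle for 10 of 40 genes in HEV-like cells (48.5% of all genes) and 22 of the 39 with enough UMIs in arterial-like cells (53.6%). It was higher for 31 of 39 in capillary-like cells (50.1%) and 21 of 39 in the other cells (47.9%). At day 3 it was higher for 29 (49.8%), 30 (48.1%), 25 (52.7%) and 38 (47.4%), and at day 7 for 37 (53.4%), 29 (47.1%), 24 (46.7%) and 34 (51.7%). Among the genes under the unadjusted p, the largest difference in the lymphatic class was that of Rsad2 at 1.04 (SE 0.38, adjusted p 1), and in blood endothelial-like cells that of Irf7 at 0.40 (SE 0.14, adjusted p 1). Without the vehicle library labelled Cre-negative, or without the vehicle library labelled Cre-positive, 4 genes were called in the lymphatic class each time (0.596% and 0.572% of all genes), and in HEV-like cells 1 and 2 (0.585% and 0.725%).

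T cell-like cells had 20 of 40 genes above 0 and 2 under the unadjusted p (15.7% of all genes), with 0.0494% of genes called. B cell-like cells had 18 of 39 above 0, a median of -0.04 and 3 under the unadjusted p (13.9% of all genes), with 0.00856% of genes called. Myeloid-like cells had 17 of 40 above 0, a median of -0.07 and 3 under that p (16.1% of all genes), and fibroblastic stromal-like cells 28 of 40 above 0, a median of 0.14 and 3 under that p (10.8%), with 0% of all genes called in both.

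The averages cover pairs that differ, so 21 of the genes are given in every library. For 8 of them, Irf7, Isg15, Ifit1, Ifit2, Oasl1, Oas1a, Rsad2 and Ifi27l2a, a large genotype difference in this class was the reason for the choice, so their order by label here is a description. Among the regulators in blood endothelial-like cells, Irf7, the factor that amplifies type I interferon, stood at 139 and 135, 90.8 and 126, and 110 and 182 CPM. Irf1, a transcription factor shared by both interferon routes, stood at 143 and 172, 141 and 130, and 143 and 124. Irf7 was thus alike at vehicle and higher with Cre at both days, and Irf1 was higher with Cre at vehicle and lower at both days.

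For the sensors of viral RNA, Ifih1 (MDA5) had 84.3 and 89.4, 61.7 and 60.7, and 67.6 and 93.1 CPM, and Ddx58 at 108 and 107, 91.2 and 92.5, and 105 and 113. In the Isg15 system, Isg15 stood at 240 and 229, 207 and 291, and 180 and 280, and Usp18 at 34.8 and 30.7, 25.7 and 31.1, and 28.8 and 33.6. All 4 were higher with Cre at day 7 by CPM. With the pair set to 1 scale by the median ratio, the log2 difference at day 3 and day 7 was 0.03 and 0.39 for Ifih1, but 0.08 and 0.02 for Ddx58.

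The RNA effectors followed Isg15. Ifit1, which binds viral RNA caps, stood at 81.9 and 81.5, 53.3 and 71.6, and 62.2 and 103 CPM. Ifit2 stood at 61.3 and 63.2, 41.3 and 49.3, and 43.4 and 69.6, and Ifit3 at 100 and 88.6, 52.3 and 73.7, and 82.7 and 104. These genes belong to 1 cluster on chromosome 19, their reads could be split between near relatives by the authors' counting, and each was higher with Cre at day 3 and at day 7. Oasl1 stood at 21.1 and 20.4, 15.0 and 18.5, and 18.6 and 28.8, and Oasl2 at 112 and 95.7, 72.6 and 81.8, and 97.6 and 122. Oas1a, whose product makes the second messenger that activates RNase L, stood at 14.1 and 12.3, 11.6 and 15.3, and 11.3 and 16.5. For Oasl2 and Oas1a the library labelled Cre-positive was lower at vehicle and higher at both days, while Oasl1 was alike at vehicle and higher with Cre at both days.

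Bst2, among the antiviral enzymes and restriction factors, stood at 897 and 819, 938 and 960, and 757 and 901 CPM. Among the membrane proteins, Ifitm2 stood at 987 and 909, 1280 and 1253, and 1004 and 971, and Ifitm3 at the values given above. Ifitm2 and Ifitm3 were highest at day 3 under both labels, and neither differed between labels by as much as it did between day 3 and vehicle.

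Of the interferon-inducible GTPases, Gbp4 stood at 132 and 118, 116 and 115, and 112 and 137, and Gbp7, a guanylate-binding protein of host defence, at 179 and 181, 150 and 150, and 139 and 171. Parp14, an ADP-ribosyltransferase, stood at 257 and 270, 179 and 190, and 242 and 275, and Trim30a at 167 and 170, 150 and 155, and 158 and 170. All 4 were higher with Cre at day 7 by CPM. With the pair set to 1 scale by the median ratio, the log2 difference at day 3 and day 7 was 0.05 and 0.23 for Gbp4 and 0.05 and 0.22 for Gbp7, whereas for Parp14 it was 0.14 and 0.11 and for Trim30a 0.10 and 0.03.

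**Figure D3:**
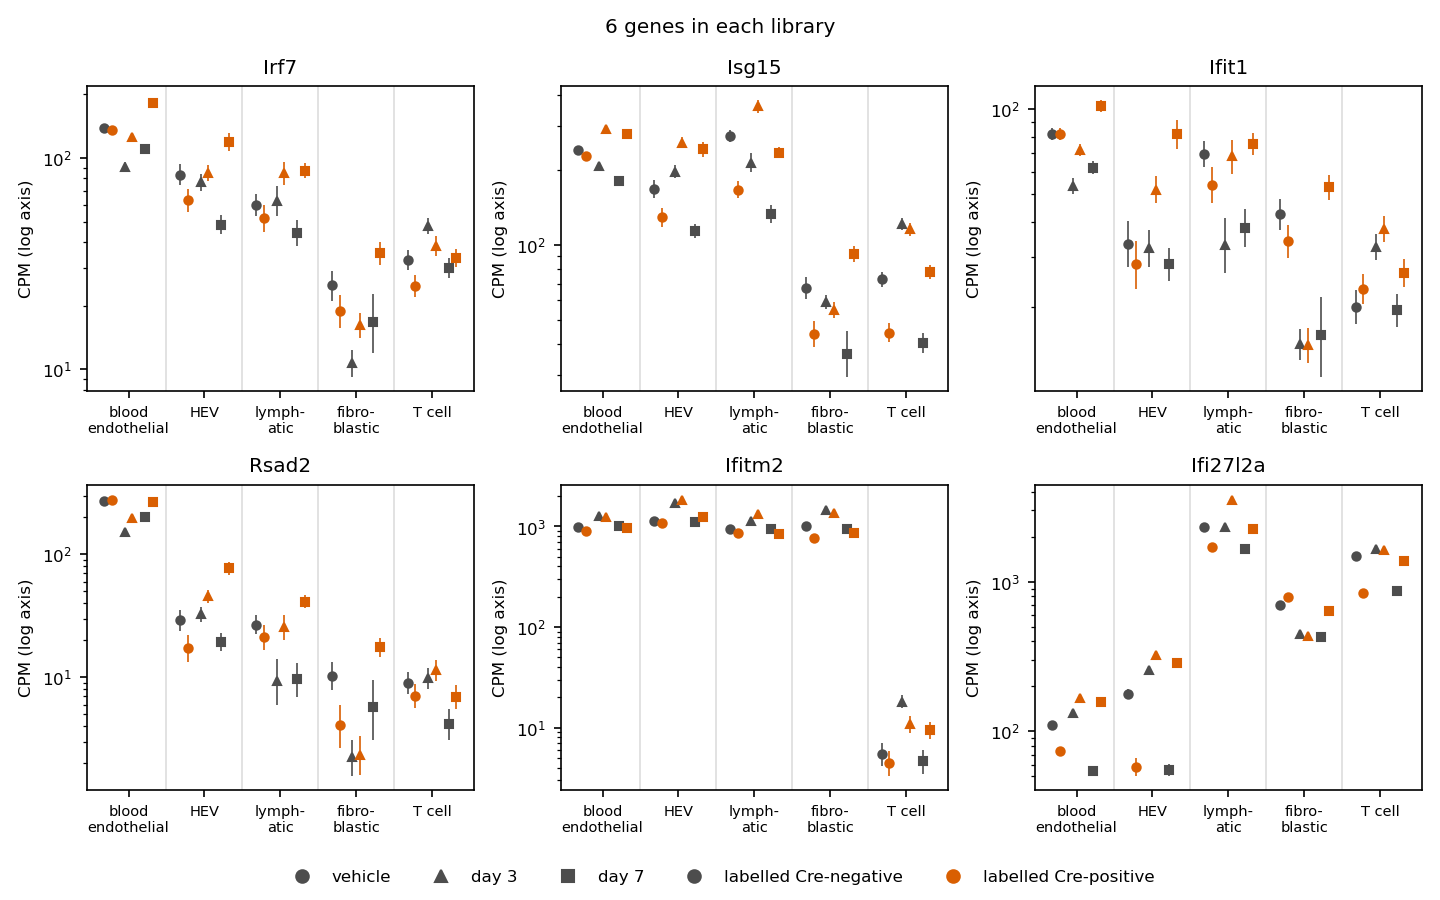
Each panel shows 1 gene, with CPM on a log axis in 5 classes, grey for libraries labelled Cre-negative and orange for Cre-positive, shapes for vehicle, day 3 and day 7, and bars for the exact 95% Poisson interval of the count. The orange square (day 7) lies above the grey square for Irf7, Isg15, Ifit1, Rsad2 and Ifi27l2a in all 5 classes shown, whereas Ifitm2 separates T cells from the rest. Irf7, Isg15, Ifit1, Rsad2 and Ifi27l2a were chosen for a large genotype difference in blood endothelial-like cells, so this order is a description.

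Within each pair, all genes were set to the same scale by the median ratio, and a ratio was counted past 1.5-fold; there is no test, because each side is 1 library. At vehicle, 20 of 40 genes were higher in the library labelled Cre-positive in blood endothelial-like cells, 10 of 40 in HEV-like cells and 13 of 39 in lymphatic endothelial-like cells, with medians of -0.19 and -0.18 in the latter classes. In HEV-like cells 48.5% of all genes were higher, and the share is not given here for the blood and lymphatic endothelial-like classes. One gene, Ifitm1, was at least 1.5-fold lower in blood endothelial-like cells (5.26% of all genes), 4 in HEV-like cells (6.56%) and 3 in lymphatic endothelial-like cells (8.59%). These counts past 1.5-fold lie near the shares of all genes.

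At day 3 the counts were 37 of 40, 29 of 40 and 37 of 39, where 50.8%, 49.8% and 50.0% of all genes were higher. The medians were 0.17, 0.11 and 0.51. At least 1.5-fold higher were 1 gene in blood endothelial-like cells (5.8% of all genes), 3 in HEV-like cells (5.09%) and 15 in lymphatic endothelial-like cells (9.59%). The lymphatic class thus had the widest day 3 difference, led by Ifit2, at 15.95 against 42.4 CPM, and Rsad2, at 9.41 (95% interval 5.96 to 14.1) against 25.6 (20.3 to 31.9). The Cre-positive library of this pair also had the largest cluster with few UMIs, and the part of library quality here was not tested. Cells with Y-linked UMIs made up 20.3% of the lymphatic class in the Cre-negative library of this pair and 52.3% in the Cre-positive one.

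At day 7 the counts were 37 of 40, 37 of 40 and 37 of 39, and the medians were 0.25, 0.37 and 0.46. In HEV-like cells 53.4% of all genes were higher, and the share is not given here for the blood and lymphatic endothelial-like classes. At least 1.5-fold higher were 5 genes in blood endothelial-like cells (6.03% of all genes), 15 in HEV-like cells (6.89%) and 13 in lymphatic endothelial-like cells (4.09%). In HEV-like cells the largest were Ifi27l2a, at 55.2 (50.2 to 60.7) against 286 CPM (268 to 305), Rsad2, at 19.4 (16.5 to 22.7) against 76.9 (67.8 to 86.8), and Oasl1, at 8.57 (6.66 to 10.9) against 29.6 (24.1 to 36.0). In lymphatic endothelial-like cells Rsad2 led, at 9.69 (6.98 to 13.1) against 41.1 (36.3 to 46.4). The intervals cover counting error only, since mice were not replicated.

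Isg15 gives the same course in the lymphatic class, at 275 and 167, 214 and 361, and 133 and 235 CPM, and in HEV-like cells, at 168 and 130, 197 and 258, and 114 and 243. In both classes the library labelled Cre-positive was lower at vehicle and higher at both days. Irf7 stood at 83.5 and 63.2, 76.7 and 84.9, and 48.4 and 120 among HEV-like cells, and at 60.03 and 51.8, 62.6 and 84.9, and 44.3 and 87.2 in lymphatic endothelial-like cells, so its order by label was the same as for Isg15.

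The change of the genotype difference between vehicle and oxazolone, with both days pooled, was tested as an interaction. edgeR called none of the 40 genes (39 in the lymphatic class), and DESeq2 none. Of all genes, DESeq2 called 0.0834%, 0.0173% and 0.25% in blood endothelial, HEV and lymphatic endothelial-like cells, and the shares given next are by edgeR. In blood endothelial-like cells 34 of 40 interaction terms were above 0, with a median of 0.22, 0 genes under an unadjusted p of 0.05 (2.66% of all genes) and 0.00695% of all genes called. In HEV-like cells 34 of 40 were above 0, with a median of 0.39, 6 genes under that p (2.84% of all genes) and 0.00864% of all genes called. In lymphatic endothelial-like cells 38 of 39 were above 0, with a median of 0.71, 13 genes under that p (6.06% of all genes) and 0.2% of all genes called, against a median of 0.02 over all genes. The lowest adjusted p there was that of Rsad2, 0.137, at a log2 of 2.19 (SE 0.46). Without the day 3 library labelled Cre-negative, 4 genes were called in HEV-like cells (1.06% of all genes), 3 in lymphatic endothelial-like cells (1.3%) and 1 in blood endothelial-like cells (1.93%); without the day 7 library labelled Cre-negative, 3 were called in the lymphatic class (0.909%).

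The same pairs were read outside endothelium. In the CD45 libraries, the library labelled Cre-positive was higher at vehicle for 13 of 40 genes in T cell-like, 9 of 39 in B cell-like, 13 of 40 in myeloid-like and 18 of 40 in fibroblastic stromal-like cells. At least 1.5-fold lower there were 3 (4.63% of all genes), 5 (4.44%), 10 (9.95%) and 4 (11.2%). In fibroblastic stromal-like cells Irgm1, Gbp2 and Irf1 were past 1.5-fold higher at vehicle, at a log2 of 0.77, 0.70 and 0.67. At day 7 the library labelled Cre-positive was higher for 32 of 40, 31 of 39, 34 of 40 and 28 of 40, with medians of 0.33, 0.16, 0.54 and 0.30. At least 1.5-fold higher were 6 (6.65%), 6 (6.49%), 19 (6.69%) and 11 (7.34%). Past 1.5-fold lower at day 7 in fibroblastic stromal-like cells were Ifitm1 (-1.07) and Isg20 (-0.64). At day 3 15 of 40, 15 of 39 and 10 of 40 genes were higher in T, B and myeloid-like cells of the CD45 libraries, with medians of -0.09, -0.05 and -0.32. T cell-like and B cell-like cells caught in the CD31 libraries had 21 of 40 and 26 of 38 genes higher at day 3, with medians of 0.04 and 0.16, and 37 of 40 and 32 of 38 at day 7. Fibroblastic stromal-like cells had 21 of 40 higher at day 3, with a median of 0.07. The share of all genes that were higher is not given beside these direction counts. At day 7 it was 39.4% and 42.6% in macrophage-like and dendritic cell-like cells, which make up the myeloid-like class. Lymphatic endothelial-like cells, at 37 of 39 and a median of 0.51, stood above the T and B cell-like cells of the same CD31 libraries; this difference between classes was not tested. The myeloid-like class pools macrophage-like and dendritic cell-like cells, and its macrophage-like share was 40.4% and 28.1%, 48.1% and 39%, and 31.3% and 37%. Within macrophage-like cells alone, 19, 6 and 29 of the 40 genes were higher with Cre at vehicle, day 3 and day 7 (53.5%, 47.7% and 39.4% of all genes), and within dendritic cell-like cells alone 10, 13 and 29 of the 34 with enough UMIs (51.2%, 48.4% and 42.6%), with no test. The day 3 medians were -0.42 and -0.09 in these components, and the day 7 medians 0.31 and 0.58.

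The sum of all 40 genes is carried mostly by the abundant Ifitm3, Ifitm2, Bst2 and Ifi27l2a. It was higher in the library labelled Cre-positive in 3 of 15 classes of both fractions at vehicle, 8 at day 3 and 13 at day 7. At each treatment all classes of a fraction come from the same pair of libraries, so they are not separate observations of a label difference. For the blood endothelial-like class the sum came to 8585 and 8084, 8851 and 9491, and 7871 and 8935 CPM. The sum in the HEV-like class came to 8457 and 7413, 10956 and 11647, and 7257 and 9588, and in lymphatic endothelial-like cells 9501 and 8251, 10138 and 13225, and 8047 and 9582. Free RNA of the CD31 libraries held 6708 and 6158, 7823 and 7455, and 6837 and 7528 CPM of the 40 genes, so it too was lower with Cre at vehicle and higher at day 7, but it was lower at day 3. Its part in the class values was not tested beyond the subtraction given next. Subtracting free RNA left the day 7 medians at 0.24, 0.36 and 0.47 in blood endothelial, HEV and lymphatic endothelial-like cells. With cells that have Y-linked UMIs alone, the same medians were 0.21, 0.31 and 0.33.

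Within single cells thinned to 1000 UMIs, the 40 genes gave a median of 8 and 7, 7 and 12, and 6 and 8 UMIs per lymphatic endothelial-like cell. The 10th percentile over cells was 2 and 1, 1 and 4, and 1 and 2, and the 90th was 17 and 16, 18 and 23, and 15 and 18. At day 3 the low, middle and high points were all above those of the library labelled Cre-negative. HEV-like cells had medians of 7 and 6, 10 and 11, and 7 and 8, and T cell-like cells of the CD45 libraries 2 and 2, 3 and 2, and 1 and 2.

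**Figure D4:**
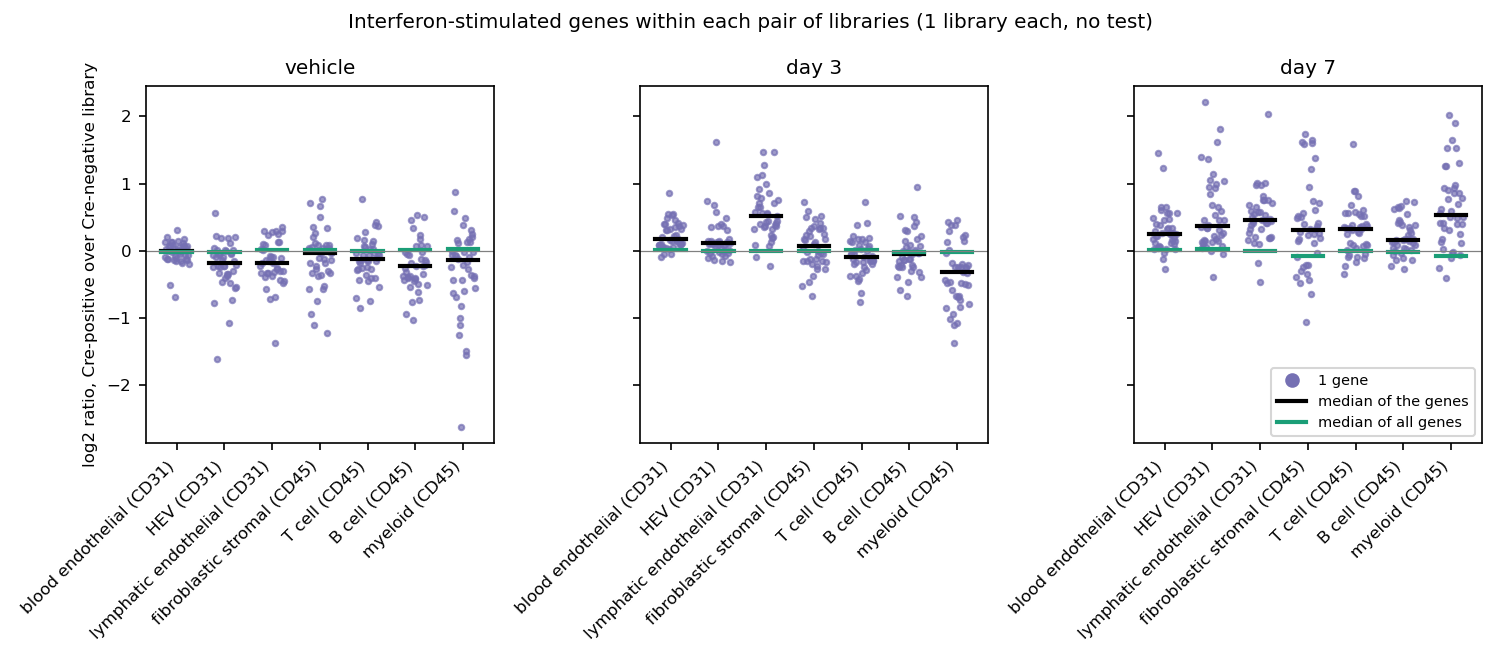
Each point is the log2 ratio of 1 of the 40 genes between the libraries labelled Cre-positive and Cre-negative, in 7 classes at vehicle, day 3 and day 7; black lines are the medians of these genes and green lines those of all genes. The black lines lie at or below the green ones at vehicle, above them in the endothelial classes at day 3, and above them in all 7 classes at day 7.

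Oxazolone was compared with vehicle to ask how these genes stand after skin sensitisation; day 3 and day 7 share the vehicle libraries. In HEV-like cells 1 of the 40 genes was called at day 3, where 4.7% of all 11570 genes were, 2.68% higher and 2.02% lower. Ifitm2 (ENSMUSG00000060591, chromosome 7, 140954837 to 140955987) stood at 1144 and 1073, 1702 and 1848, and 1110 and 1235 CPM. Both day 3 libraries were above the other 4, and the rise was a log2 of 0.69 (SE 0.15, adjusted p 0.0403). It was not called in cells with Y-linked UMIs alone, at 0.52 (adjusted p 0.219), nor without the vehicle library labelled Cre-positive (0.0990) or either day 3 library (0.329 and 0.429), while without the vehicle library labelled Cre-negative 12 of the 40 genes were called (10.3% of all genes), and without either day 7 library 7 (13.7% and 12%). An unadjusted p under 0.05 was found for 10 of the 40 and for 25.7% of all genes. Over the 40 genes 34 were above 0, with a median of 0.22, and Ifitm3 was next at 0.66 (SE 0.17, adjusted p 0.0578). Of the further pathway genes, Cxcl10, a chemokine for activated T cells, rose by 1.54 (SE 0.18, adjusted p 0.0156). It was the 1 gene called of the 28 of that list tested, and without either day 3 library no gene was called in this class (0% of all genes each time). Its levels were 60.9 and 101, 219 and 231, and 47.7 and 86.8 CPM.

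Across the whole blood endothelial-like class no member was called at day 3 by edgeR, with 0% of all genes called. An unadjusted p under 0.05 was found for 10 of the 40 and for 20.7% of all genes, and DESeq2 called 4 of 39, and 3.14% of all genes. The direction differed from HEV-like cells: 27 of 40 were below 0, with a median of -0.14. Rsad2 had a log2 of -0.60 (SE 0.13, adjusted p 0.12) and Parp14 one of -0.45 (SE 0.10, adjusted p 0.127), while Ifitm2 had 0.48 (SE 0.14) and Ifitm3 0.50 (SE 0.18). HEV-like cells are part of this class, and the difference between the 2 sets was not tested. The makeup of the class moved with this contrast, as given above: from vehicle to day 3 the other cells went from 46% to 25.6% and from 52.5% to 43.7%, and capillary-like cells from 28.5% to 46.7% under the Cre-negative label but from 26.2% to 22.7% under the Cre-positive one. Within HEV-like cells 19 and 8 of the 40 genes were lower at day 3 than at vehicle (Cre-negative, then Cre-positive; 52.2% of all genes both times), so the direction there was near evenly split under the Cre-negative label. Within arterial-like cells 34 and 30 of 39 were lower (48.9% and 53.9% of all genes), within capillary-like cells 21 and 28 of 39 (50.4% and 47.6%), and within the other cells 36 and 24 of 39 (47.8% and 51.2%), none of it tested. Without the day 7 library labelled Cre-negative or the one labelled Cre-positive, 4 and 3 genes were called (7.69% and 6.78% of all genes). In lymphatic endothelial-like cells none was called at day 3, with 0% of genes called and 1 gene under the unadjusted p (5.85% of all genes). DESeq2 called 0 (0.00835% of all genes), and 23 of 39 were above 0. The labels went opposite ways there: 11 of 39 genes were higher at day 3 than at vehicle under the Cre-negative label (53.8% of all genes), with a median of -0.26, and 30 of 39 under the Cre-positive label (50.4%), with a median of 0.42. Without either vehicle library 3 were called each time (2.35% and 0.902% of all genes).

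At day 7 edgeR called none of the genes tested in any of the 7 classes, and it called 0% of all genes in blood endothelial, HEV, lymphatic endothelial, fibroblastic stromal, T cell, B cell and myeloid-like cells alike. DESeq2 called none of them either, while it called 2.21% of all genes in fibroblastic stromal-like cells, where 35 of the 40 had an adjusted value, and at most 0.0417% in the others. Under an unadjusted p of 0.05 were 0, 1, 0, 2, 1, 7 and 0 of the genes in that order, against 2.7%, 3.5%, 1.11%, 10.3%, 2.57%, 3.75% and 3.04% of all genes. In B cell-like cells 37 of 39 were above 0, with a median of 0.19. Without the day 7 library labelled Cre-negative, 4 genes were called in HEV-like cells (0.903% of all genes), and without the vehicle library labelled Cre-positive, 1 in lymphatic endothelial-like cells (0.588%). The 2 libraries of a day lie on both sides of vehicle for many of these genes: in HEV-like cells 6 of 40 were higher than vehicle at day 7 under the Cre-negative label, and 31 of 40 under the Cre-positive label. The shares of all genes that were higher are not given for these counts.

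Fibroblastic stromal-like cells of the CD45 libraries, which in nodes build the reticular network, showed the largest number of calls. At day 3 15 of the 40 genes were called, 13 lower and 2 higher, where 23.3% of all 13530 genes were called, 12% lower and 11.2% higher. The median of the 40 genes was -0.46, against -0.01 over all genes. The makeup of the class changed with the same contrast: cluster 6 held 14.4% and 18.8%, 77.2% and 78.1%, and 40.2% and 30.7% of its cells, with clusters 8 and 13 holding the rest. In cluster 6 alone and in cluster 8 alone, an alternative chosen after seeing the data, 0 of the genes were called (1.27% and 0% of all genes). DESeq2 called 15 on the whole class, and 18.9% of all genes. Without the vehicle library labelled Cre-negative 8 were called (16.5% of all genes) and without the one labelled Cre-positive 23 (25.4%), and without either day 3 library 0 (2.46% and 2.21%).

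The 13 lower genes were Irf1, Stat2, Ifih1, Ifit2, Oasl2, Cmpk2, Samd9l, Rnf213, Gbp2, Ifi27l2a, Parp14, Rtp4 and Trim30a. Ifit2 stood at 21.1 and 17.4, 5.67 and 7.14, and 10.2 and 15.1 CPM, a day 3 difference of -1.59 (SE 0.24, adjusted p 0.00746). Cmpk2 stood at 18.4 and 11.9, 4.04 and 3.90, and 10.2 and 16.04, a difference of -1.91 (SE 0.31, adjusted p 0.00938). Irf1 stood at 106 and 164, 47.0 and 65.4, and 106 and 96.7, a difference of -1.25 (SE 0.22, adjusted p 0.0111). In these 3 genes both day 3 libraries were below the other 4. Within a cluster the values were smaller: Ifit2 had -0.15 in cluster 6 alone and -0.70 in cluster 8 alone, Irf1 -0.60 and -0.70, and Cmpk2 -0.10 in cluster 8 alone, none of them called. Gbp2, a GTPase of host defence, differed by -1.18 (SE 0.19), the receptor chaperone Rtp4 by -1.10 (SE 0.21), and Ifi27l2a by -0.73 (SE 0.20), the smallest adjusted p of the 3 being 0.00833. The value of Ifi27l2a was 0.55 in cluster 6 alone and 0.70 in cluster 8 alone, the opposite direction, and that of Rtp4 came as near to 0 as -0.01 among the alternatives. Oasl2 in cluster 6 alone (0.18) and Samd9l in cluster 8 alone (0.13) also had the opposite sign.

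The 2 higher genes were membrane proteins. Ifitm1 (ENSMUSG00000025491, chromosome 7, 140967221 to 140969825) stood at 461 and 473, 1816 and 1235, and 970 and 490 CPM, a day 3 difference of 1.66 (SE 0.28, adjusted p 0.0102). Ifitm2 stood at 1016 and 763, 1451 and 1365, and 941 and 860, a difference of 0.68 (SE 0.17, adjusted p 0.0326). Both day 3 libraries were the highest for each gene. In cluster 6 alone and cluster 8 alone Ifitm1 had 0.17 and 0.19 and Ifitm2 0.93 and 0.38, none of them called. In the further pathway, 5 of 30 genes were called, beside 23.3% of all genes: Jak2, Irf8 and Sting1 were higher, and the RNA editor Adar and the nucleotide hydrolase Samhd1 lower. The day 7 pair also depended on the cluster. The class median of 0.30 for Cre-positive over Cre-negative was 0.42 in cluster 8 and -0.68 in cluster 6, where 31 of 37 genes were lower.

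T cell-like cells were the class in which all 40 genes lay above 0 at day 3, with a median of 0.40, against 0.01 over all genes. None passed the edgeR test, where 0% of all genes were called, although 20 had an unadjusted p under 0.05 (5.83% of all genes), and DESeq2 called 1 of 39 (0.133% of all genes). Ifit1 was at 20.02 and 23.2, 32.6 and 37.7, and 19.5 and 26.3 CPM, a difference of 0.67 (SE 0.11, adjusted p 0.255). Isg15 was at 72.7 and 44.5, 121 and 116, and 40.6 and 77.9. In both genes the day 3 libraries were the highest. Without the day 7 library labelled Cre-negative 5 genes were called (0.257% of all genes), and without the one labelled Cre-positive 4 (0.162%).

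The largest day 3 value in T cell-like cells was that of Ifitm1, at 3.91 (SE 0.53, adjusted p 0.158). Its levels were 0.567 and 0.778, 11.6 and 8.70, and 1.02 and 3.70 CPM. Free RNA of these libraries held 153 and 152, 618 and 403, and 164 and 261 CPM of Ifitm1, and fibroblastic stromal-like cells held the levels given above. The part of free RNA in the T cell values was not tested. Ifi27l2a in T cell-like cells stood at 1481 and 845, 1656 and 1624, and 862 and 1376, so the vehicle library labelled Cre-positive and the day 7 library labelled Cre-negative were the low ones, as in HEV-like and lymphatic endothelial-like cells.

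In myeloid-like cells, whose macrophage-like share was higher at day 3 than at vehicle under both labels, 36 of 40 genes were above 0 at day 3, with a median of 0.57. Within macrophage-like cells 37 and 27 of the 40 were higher at day 3 (49.7% and 44.5% of all genes), and within dendritic cell-like cells 24 and 24 of 34 (51.6% and 49.4%). In the whole class none was called, with 0.00896% of all genes called, 13 under the unadjusted p (12.4% of all genes) and 0 of 37 by DESeq2, and 2 were called without the vehicle or the day 7 library labelled Cre-negative (1.16% and 0.536%). Of all genes, DESeq2 called 0.948% in the whole class. By edgeR, Isg15 had 1.47 (SE 0.45, adjusted p 0.297), from levels of 101 and 35.2, 227 and 138, and 51.2 and 101 CPM. In B cell-like cells 23 of 39 were above 0 and none was called, with 0% of all genes called, 9 under the unadjusted p (9.12% of all genes) and 1 by DESeq2 (0.339%), and 3 were called without either day 7 library (0.858% and 0.825%).

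Apart from Ifng, the interferon genes looked up were scarce in these counts. Of the interferon alpha genes only Ifna1, Ifna2 and Ifna4 were on the list, so the rest of that family was not read. Of the 9 ligand genes, Ifna1, Ifna2, Ifna4, Ifne, Ifnl2 and Ifnl3 had no UMI, and Ifnk at most 5 in a library, in blood endothelial, HEV, lymphatic endothelial, fibroblastic stromal, T cell, natural killer cell, myeloid or plasmacytoid dendritic cell-like cells. Ifnb1, the interferon beta gene, had 10 UMIs in plasmacytoid dendritic cell-like cells of the vehicle CD45 library labelled Cre-negative, 1 in those of the vehicle CD31 library labelled Cre-negative, and 1 in blood endothelial-like cells of the day 3 library labelled Cre-positive. Ifng, the gene for interferon gamma, was at 132 and 89.2, 161 and 234, and 99.9 and 133 CPM in natural killer cell-like cells. Its T cell levels were 8.97 and 7.43, 5.68 and 9.26, and 8.25 and 5.39. In natural killer cell-like cells the label order of Ifng was lower with Cre at vehicle and higher at both days, and in T cell-like cells it was higher only at day 3.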

How the data were processed

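Libraries were made with a 3' droplet kit. Per the file headers and the submitters' processing notes, the authors deposited raw UMI counts per gene and barcode from Cell Ranger (version 7.0.1 in the notes, 4 in the headers) on mm10. Cells kept had 1000 UMIs and 500 genes or more, with mitochondrial UMIs up to 10%, and the highest doublet scores, 0.8% per 1000 barcodes, were removed. Cells were clustered with scanpy 1.11.5 (2000 variable genes, 30 components, Leiden resolution 1), and classes were named from markers. Counts were summed per class and library. The fits used edgeR 4.0.16 (quasi-likelihood, TMM, genotype plus treatment, 6 libraries per class, 95% exact Poisson intervals for levels), with Benjamini-Hochberg adjustment over all genes, and the code was tested on simulated data. DESeq2 1.42.0 and the other alternatives are in the closing section. The members and lists were chosen with earlier results of these data known. Genes given in every library are those called in an endothelial class by genotype, day or interaction, the 2 highest of each role group in blood endothelial-like cells, and the 8 with the largest genotype difference there among genes of at least 10 CPM. Fibroblastic stromal-like cells were fitted in the CD45 libraries, not the CD31 libraries as planned, because too few (under 50) were in some of the latter. A transgene feature listed in 4 libraries was left out.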

Additional observations from a re-analysis of the deposited data

How the results depend on the processing

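No pairing by replicate was possible because each group has 1 library, so no replicate number links groups. The library block between classes and the treatment term of the genotype fit stand in the main fits. Counts of the 40 genes called that moved by over 1.5 times were as follows. Without the filter on low counts, 2 were called by genotype in HEV-like and 2 in lymphatic endothelial-like cells (0.942% and 0.546% of all genes), 8, 9, 6 and 12 at day 3 in HEV, T cell, B cell and myeloid-like cells (8.45%, 0.502%, 1.73% and 2.46%), 2, 2 and 1 at day 7 in HEV, B cell and myeloid-like cells (0.354%, 0.27% and 0.295%), and 1, 3 and 4 by the interaction in blood endothelial, HEV and lymphatic endothelial-like cells (0.773%, 0.427% and 0.868%). DESeq2 called 4, 2, 1 and 1 at day 3 in blood endothelial, HEV, T cell and B cell-like cells (3.14%, 11.3%, 0.133% and 0.339%). With doublet-scored barcodes kept, 1 was called at day 3 in B cell-like cells (0.0852%), and in cells with Y-linked UMIs alone 0 in HEV-like cells (1.39%). In fibroblastic cluster 6 alone and cluster 8 alone, chosen after seeing the data, 0 were called at day 3, and the day 3 log2 difference changed sign for Oasl2 (0.18) and Ifi27l2a (0.55) in cluster 6 and for Samd9l (0.13) and Ifi27l2a (0.70) in cluster 8. The cause was not tested. Leaving out 1 library at a time gave 0 to 4 (blood endothelial), 0 to 12 (HEV), 0 to 3 (lymphatic endothelial), 0 to 23 (fibroblastic), 0 to 5 (T cell), 0 to 3 (B cell) and 0 to 2 (myeloid) at day 3, 0 to 4 (HEV) and 0 to 1 (lymphatic endothelial) at day 7, 0 to 2 (HEV) and 0 to 4 (lymphatic endothelial) by genotype, 0 to 1, 0 to 4 and 0 to 3 by the interaction in blood endothelial, HEV and lymphatic endothelial-like cells, and 24 to 27 (HEV) and 28 to 32 (lymphatic endothelial) between classes. The interaction could not be fitted without a vehicle library. Depth limits low genes: for Oasl1 in HEV-like cells at day 7, Cre-negative, the level of 8.57 CPM has a counting interval of 6.66 to 10.9.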

Other observations

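A CD31 cluster led by Ccl20, Coch and Madcam1 lay outside the named classes. Its Rsad2 level was 6.68 and 5.26, 4.64 and 26.4, and 1.48 and 31.1 CPM, in the library order of the report, and its Irf7 level 56.2 and 30.5, 50.3 and 61.5, and 33.7 and 82.0. The cluster held 123 to 480 cells per library. The 95% counting intervals of Rsad2 at day 7 were 0.480 to 3.45 (5 UMIs) and 23.6 to 40.2 (58 UMIs), while at vehicle the intervals of 3.45 to 11.7 and 2.52 to 9.68 overlap. These are single libraries with no test.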
